A study of Mus musculus with 34 samples.

Results

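The lungs described here came from mice given 18 µg of NRCWE-045, a carbon nanotube material known by its code, and are set against control lungs. The members are the 3 arrays with treatment NRCWE-045 at 18 µg and all 5 arrays with treatment Control at 0 µg, out of 34 arrays in the series. All mice were female C57BL/6, 5 to 7 weeks old, and each received a single intratracheal instillation in 40 µl, with lungs taken at day 28. The labels do not say what was instilled into the controls, and the 5 controls include 1 array whose title reads NRCWE-043 0µg. The other arrays used for comparison hold lungs given 54 µg of NRCWE-045 (5 arrays) and lungs given 18 µg of NRCWE-043 or NRCWE-044 (11 arrays). The RNA was extracted from randomly taken pieces of lung, and at necropsy the liver and the heart were taken out as well. On every array 200 ng of lung RNA was labelled with Cy5 and set against a universal mouse reference RNA from 11 cell lines labelled with Cy3. Each value below is the log2 ratio of Cy5 over Cy3 after background correction and normalization within the array, so a level is relative to that reference and is not compared between genes.

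Carbon nanotubes that reach the alveoli are taken up by macrophages and cleared slowly. The lung can answer such fibres with cytokines and chemokines that draw neutrophils and lymphocytes, with local acute phase proteins such as serum amyloid, and with matrix deposition by fibroblasts. Peroxisome proliferator-activated receptor alpha (PPARA) drives genes that burn fatty acids, and lung capillary endothelium and alveolar fibroblasts carry their own transcription factors and receptors, which serve as their markers. Liver, fat and heart muscle have transcripts of very high abundance, so small amounts of such RNA are visible beside lung RNA.

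The labelled tissue held up against its markers. Sftpc, the surfactant protein of alveolar type 2 cells, had log2 ratios of 8.27, 8.23 and 8.41 in the NRCWE-045 18 µg lungs, against 7.93 to 8.32 in the control lungs. Ager, a receptor of alveolar type 1 cells, had 5.80, 5.75 and 5.63, against 5.76 to 6.59 in the controls, and the club cell secretoglobin Scgb1a1 had 7.54, 8.44 and 7.78, against 7.35 to 8.26. All 3 markers were far above the reference RNA on every one of the 8 arrays.

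The 3 treated lungs differed from one another in transcripts of liver, fat, heart and immune cells, and each stood apart from the controls in its own way. For a list of genes, the mean over its members of log2 ratio minus control mean was taken on each array. The liver list lay at 0.71, 3.77 and 0.17 on treated replicates 1, 2 and 3, against -0.09 to 0.17 in the controls. The fat list lay at 1.64, 0.80 and -0.74, against -0.73 to 0.64, and the cardiac muscle list at -0.32, 0.93 and -1.43, against -0.84 to 0.74. Beside the controls, replicate 2 thus carried the high liver transcripts, replicate 1 the high fat transcripts, and replicate 3 the low heart transcripts. Low heart transcripts were not particular to replicate 3. The cardiac muscle list had a median of -1.39 over the 5 NRCWE-045 54 µg arrays. Over the 11 arrays given 18 µg of NRCWE-043 or NRCWE-044 its median was -1.38. The B and plasma cell list lay at 1.22, 0.06 and 0.17, against -0.44 to 0.21, and the neutrophil list at 1.13, 0.07 and -0.25, against -0.25 to 0.24, so both immune lists stood apart on replicate 1. In Cy5, 54.8 to 66.6% of probes were well above background on the treated arrays and 53.5 to 65.8% on the controls. Replicate 1 shared its slide with controls 1 and 2, replicate 2 shared a slide with control 3, and replicate 3 lay on a slide with no control. Replicate 3 also had a patch of 118 neighbouring spots with Cy3 raised by a median of 2.57 on the log2 scale, which touched 66 of the tested units, and 55 of these lay below every control there. Replicate 1 had a smaller patch of 50 spots over 28 tested units. In bulk lung RNA, fewer cells of a type and less RNA per cell cannot be told apart.

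**Figure D1:**
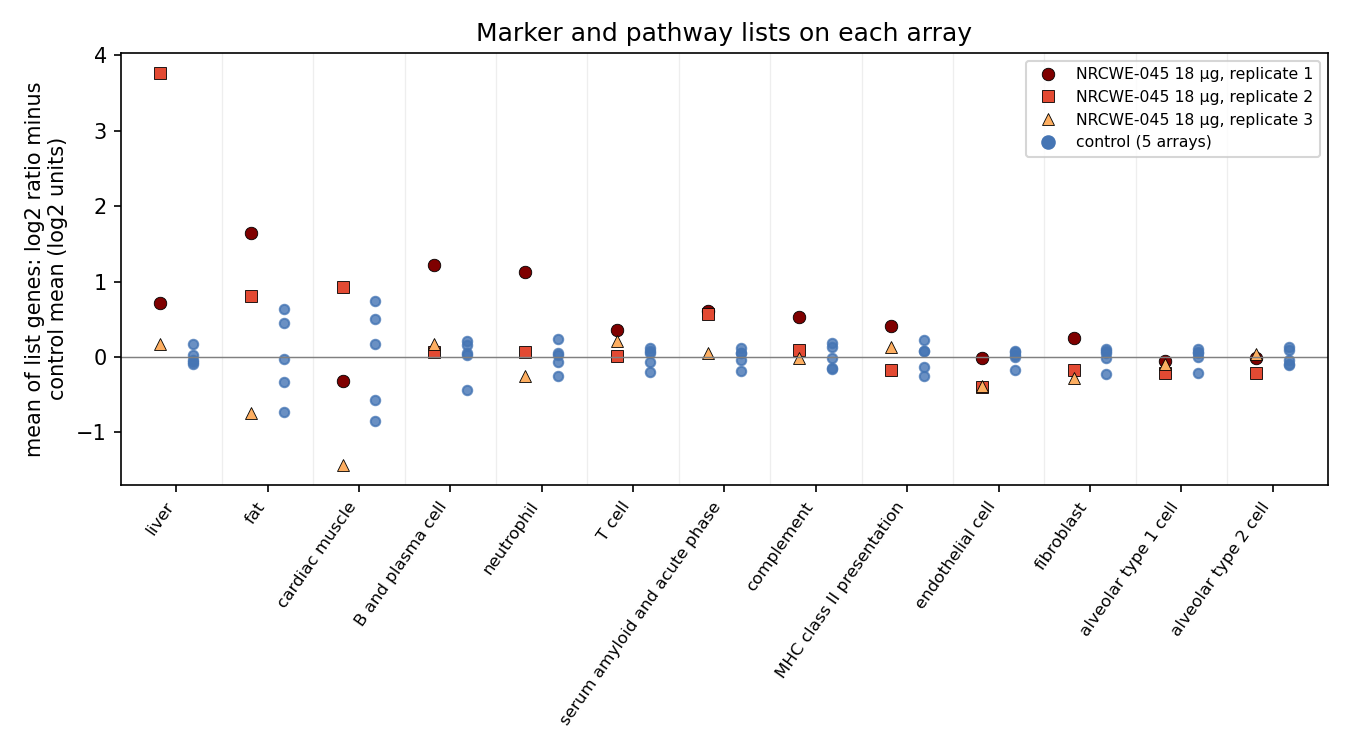
Mean over each list of log2 ratio minus control mean, in log2 units (y axis), for 13 marker and pathway lists (x axis). Symbols at the left of each lane are the 3 NRCWE-045 18 µg arrays and blue points at the right the 5 control arrays. The liver list reaches 3.77 on replicate 2, and the B and plasma cell list reaches 1.22 on replicate 1.

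Across the genome, no gene separated the NRCWE-045 18 µg lungs from the control lungs after correction for multiple tests. Of 29316 units tested (a unit is a named gene or an accession with no name here), 0 passed an adjusted p of 0.05 in limma with Benjamini-Hochberg adjustment (0% called), and the smallest adjusted p was 0.202. At an unadjusted p under 0.05 there were 2319 units, 7.91% of those tested, with 1478 higher (5.04%) and 841 lower (2.87%). The lower count was 532 with the scanner software's processed signals, 466 without replicate 3 and 1321 without replicate 1. The 3 treated arrays lay above all 5 controls for 932 units (3.18% of 29306 with a value on all 8 arrays) and below all of them for 605 (2.06%). By direction alone 50.7% of the units lay above the controls. These p-values rest on the spread between arrays within all 7 groups of the series, not only the groups compared. With only the groups compared, 2261 units reached an unadjusted p under 0.05, and the smallest limma adjusted p was 0.275.

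Which array was left out changed this count. Without treated replicate 1, 86 units passed, and 66 of them were higher. Without replicate 3, 111 passed, and 109 were higher. The 2 sets share 51 units, all of them higher in the treated lungs and highest on replicate 2. They include Serpina1a, Serpina1c, Alb, the apolipoproteins Apoa1 and Apoc3, the fibrinogen chain Fgb and Cyp2c23. Without replicate 2, 1 unit passed, and leaving out any 1 control gave 0 in every case.

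**Figure D2:**
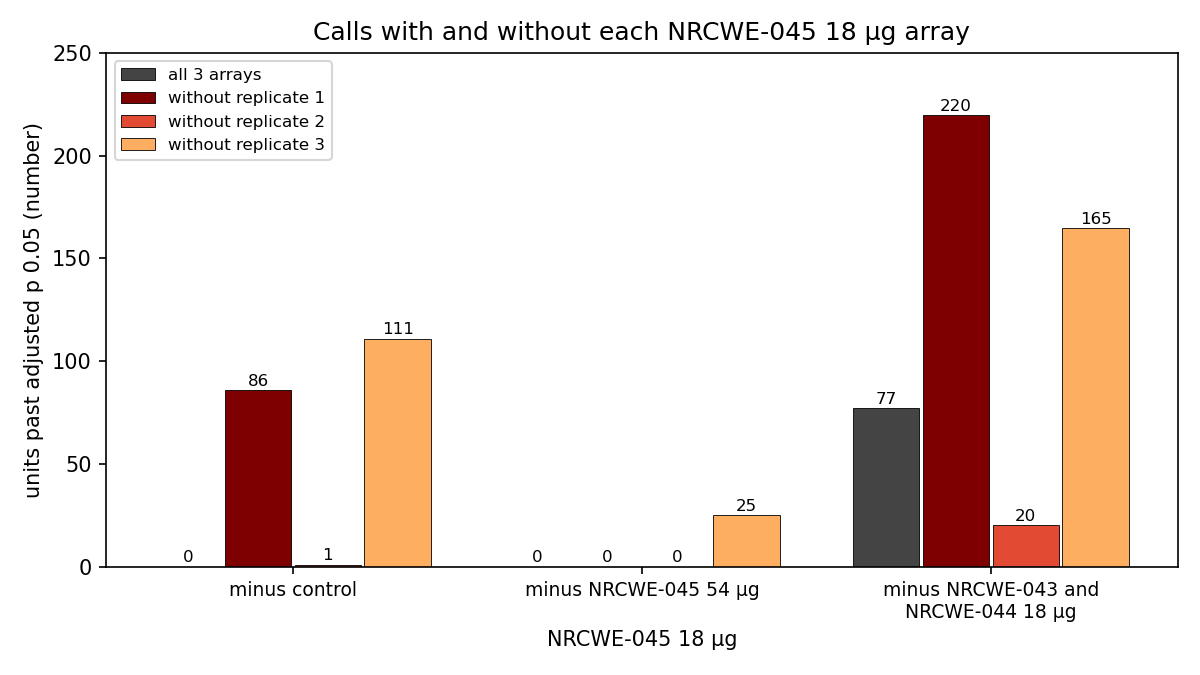
Number of units past an adjusted p of 0.05 (y axis) in the 3 comparisons (x axis), with all 3 NRCWE-045 18 µg arrays and without each one. Against the controls the count is 0 with all 3 arrays, 86 without replicate 1, 1 without replicate 2 and 111 without replicate 3.

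Liver transcripts gave the highest values of the whole comparison. All 30 of 30 tested liver list genes lay above the controls in mean, beside 50.7% of all units, with a median log2 difference of 1.63, beside 0.00 over all units. At an unadjusted p under 0.05, 25 of the 30 were higher (5.04% of all units), and for 12 the groups did not overlap (3.18% of all units). Only 15 of the 30 were well above background on all 8 arrays, with a median of 1.20, and 6 were so on no control. Testing needed such signal on only 3 arrays of the series, so a gene can enter through the lungs where it is high. All 30 lay above every control on replicate 2, against 19 on replicate 1 and 13 on replicate 3, while a single treated array lay above every control for 18.5 to 21.5% of all units. The list's median was 2.03, 0.27 and 2.45 without replicates 1, 2 and 3. It was 0.50 within the first slide, 3.89 within the second slide and -0.08 with the liver and fat list means as covariates, which removes the list's own mean by construction.

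Serpina1a, which encodes the protease inhibitor alpha-1 antitrypsin made by hepatocytes, had log2 ratios of 2.84, 5.67 and 2.22 in the treated lungs, against 0.04, 0.56, 0.26, 0.74 and 0.48 in the control lungs. All 3 treated lungs lay above all 5 controls, and replicate 2 lay highest. The log2 difference was 3.16 ± 0.67 (SE, n = 3 and 5, limma adjusted p = 0.202), and another probe gave 2.13. It was 2.11 without replicate 2 and 1.09 with the liver and fat covariates. Serpina1a belongs to the liver list, whose mean is a covariate, so that fit removes part of its difference by construction. Its near-identical neighbours Serpina1c (2.63 ± 0.56) and Serpina1e (2.38 ± 0.55) showed the same order of arrays, and because these paralogs differ by few bases their probes may read one another's RNA. Alb, the albumin of blood plasma, had 2.21, 5.32 and 1.48 in the treated lungs, against 0.42 to 0.70 in the controls, a log2 difference of 2.50 ± 0.58. Ambp, the precursor of alpha-1-microglobulin, had 1.07, 7.00 and 0.79, against -0.45 to 0.03, and its control values are above background on only 1 of 5 arrays. For all 5 of these genes the treated lungs lay above every control, and without replicate 2 the difference was 1.34 for Alb and 1.20 for Ambp.

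The promoters of 4 of these genes are shown. Their transcripts were all highest on replicate 2 and above every control on the other treated arrays. The same holds for Ambp, whose promoter is not shown, so the 4 do not stand for all genes with this pattern. Each line gives the 120 bases before the RefSeq start of the gene (build GRCm38.p6), on the strand of the gene, 5′ to 3′, with capitals marking GTTAAT, the core of the site bound by the liver factor HNF1. The coordinates are chr5:90460750-90460869 on the plus strand for Alb and, all on the minus strand of chromosome 12, chr12:103863620-103863739 for Serpina1a, chr12:103904951-103905070 for Serpina1c and chr12:103956898-103957017 for Serpina1e.
Alb: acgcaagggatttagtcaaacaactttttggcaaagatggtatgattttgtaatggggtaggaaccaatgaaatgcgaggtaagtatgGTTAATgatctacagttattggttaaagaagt
Serpina1a: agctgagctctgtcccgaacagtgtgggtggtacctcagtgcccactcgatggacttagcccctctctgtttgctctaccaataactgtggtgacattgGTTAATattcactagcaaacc
Serpina1c: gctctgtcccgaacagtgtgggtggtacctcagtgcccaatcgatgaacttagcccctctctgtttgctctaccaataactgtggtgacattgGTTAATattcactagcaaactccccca
Serpina1e: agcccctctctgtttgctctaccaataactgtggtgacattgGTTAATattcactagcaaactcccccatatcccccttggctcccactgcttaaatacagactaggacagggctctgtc
GTTAAT or its reverse complement ATTAAC stood in 7.1% of all 32851 promoter windows of 300 bases and in the windows of 9 of the 22 liver list genes that have one. The first share counts windows, and the second counts genes with a match in any of their windows, so the 2 are unlike measures. The 3 Serpina1 windows hold the same stretch around the capitals, at different distances from the annotated start. A match is a run of letters and says nothing of binding in these lungs.

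Other liver transcripts were also highest on replicate 2. Apoc3, an apolipoprotein of triglyceride-rich particles, had 1.504, 5.20 and 0.49, against -0.06 to 0.24 in the controls, none of which was well above background. The fibrinogen chain Fgb had 0.43, 5.37 and 0.44, against -0.17 to 0.11, and the apolipoprotein Apoa1 had 0.35, 3.59 and 0.31, against 0.01 to 0.19, again with no control well above background, so no fold is given for these 3 genes. Without replicate 2 the fitted log2 difference was 0.93 for Apoc3, 0.47 for Fgb and 0.23 for Apoa1. Ahsg, the fetuin A carrier protein, had 1.85, 5.55 and 1.20, against 0.47 to 1.104. Cyp2c23, an arachidonic acid epoxygenase of liver and kidney, had 0.82, 1.97 and 0.62, against 0.23 to 0.50. Trf, the iron carrier transferrin, which lung also expresses, had 6.01, 6.35 and 5.99, against 5.74 to 6.03, and its difference of 0.21 ± 0.13 was the smallest named here.

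The major urinary proteins, pheromone carriers that mouse liver secretes, were high on 2 treated arrays. Mup18 had 5.35, 6.22 and 1.24 in the treated lungs, against 0.29, 0.25, 1.03, 2.76 and -0.00 in the control lungs. Replicate 3 lay inside the control range, and control 4 was the highest control. The log2 differences were 3.40 ± 1.02 for Mup18, 3.22 ± 0.98 for Mup19 and 3.20 ± 0.93 for Mup17, and these near-identical genes cannot be read apart with certainty. Mup20 (darcin) had 3.64, 4.33 and 0.20, against 0.09 to 0.60, and a second probe of Mup20 gave a log2 difference of 0.96 in place of 2.42.

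**Figure D3:**
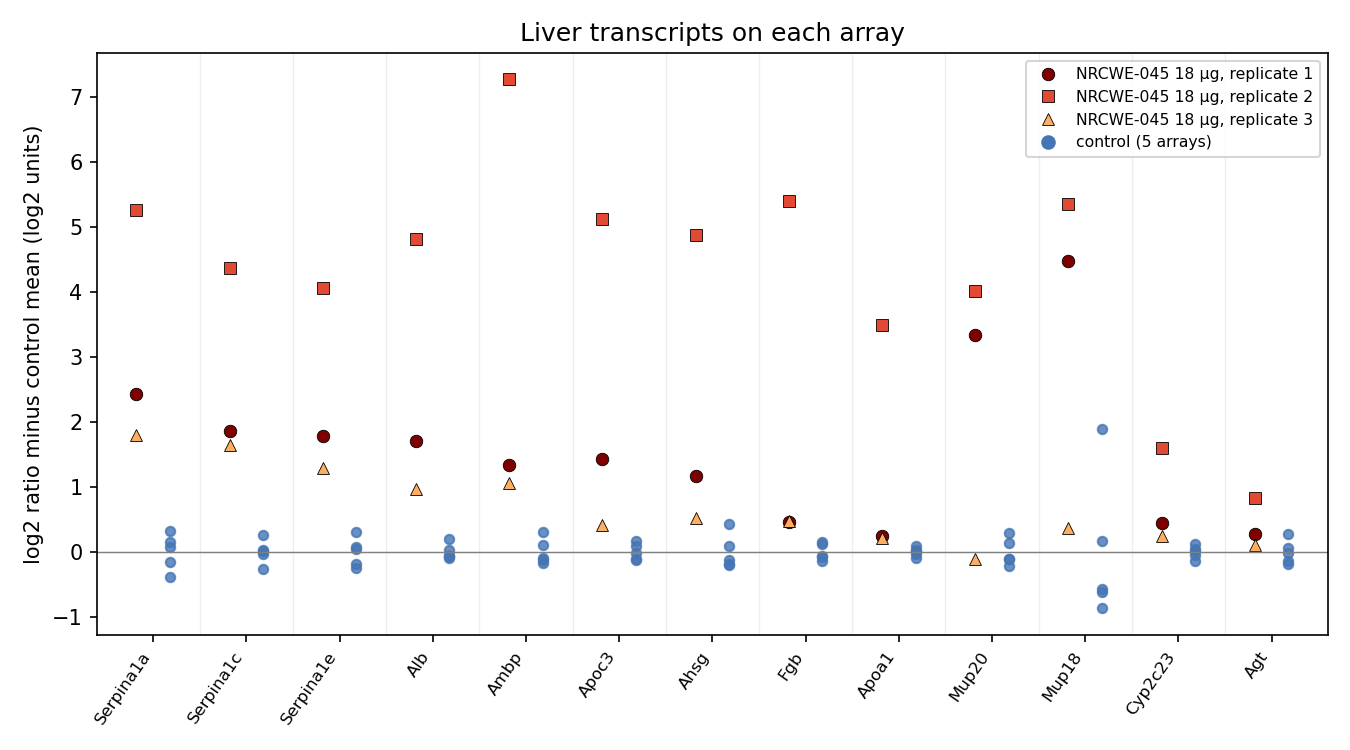
Log2 ratio minus control mean, in log2 units (y axis), of 13 liver transcripts (x axis) on each array. Symbols at the left of each lane are the 3 NRCWE-045 18 µg arrays and blue points at the right the 5 control arrays. Replicate 2 lies highest for every gene shown, and replicate 3 lies inside the control range for Mup18, Mup20 and Agt.

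Fat and heart transcripts overlapped between the groups. Adipoq, the adipocyte hormone adiponectin, had 5.76, 3.38 and -0.13 in the treated lungs, against 0.48, 1.13, 2.95, 3.06 and 0.04 in the controls. The lipid droplet coat protein Plin1 had 4.08, 2.12 and 0.24, against 0.06 to 1.99. None of the 23 tested fat list genes had groups apart, and none reached an unadjusted p of 0.05, with a list median of 0.49. Of the heart genes, the cardiac myosin heavy chain Myh6 had 5.19, 6.10 and -0.07, against 4.15 to 5.97, and the calcium pump regulator Sln had 3.84, 5.59 and 0.19, against 2.73 to 5.83. Among the treated and control arrays, replicate 3 alone was low for both. Myh6 and Sln were among the lowest log2 differences of the comparison (-1.48 ± 1.64 and -1.24 ± 1.59), and without replicate 3 they were 0.43 and 0.27; a second probe of Myh6 gave 0.05.

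Outside the liver transcripts, 7 genes among those with the smallest p in the higher direction are described, several of them receptors or signalling proteins of leukocytes. Lilra6, a leukocyte immunoglobulin-like receptor, had 3.65, 2.96 and 3.08 in the treated lungs, against 2.80, 2.40, 2.59, 2.76 and 2.79 in the control lungs. Ptpn22, a tyrosine phosphatase that restrains antigen receptor signalling, had -1.003, -0.91 and -0.64, against -1.33, -2.05, -1.63, -1.497 and -1.45. All 3 treated lungs lay above every control for both genes, and the log2 differences were 0.56 ± 0.13 and 0.74 ± 0.18 (limma adjusted p = 0.229 and 0.245). Other probes of Lilra6 gave 0.28 and 0.12. Cd80, the costimulatory ligand of CD28 on antigen-presenting cells, had 1.40, 1.52 and 1.38, against 0.76, 0.87, 1.19, 1.03 and 0.63. The treated values were close together and the control values spread, with a difference of 0.54 ± 0.14 and 0.20 for another probe. Plcl2, a phospholipase C-like protein without catalytic activity, had 0.89, 0.39 and 0.66, against -0.28 to 0.27, a difference of 0.63 ± 0.15.

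The remaining 3 lay above every control as well. Slc16a6, a monocarboxylate transporter family member, had -0.95, -1.49 and -1.23, against -2.09 to -1.64, a difference of 0.65 ± 0.15 (0.28 for another probe, and 0.15 within the second slide). Nr5a1, the steroidogenic factor of adrenal and gonad, had 0.33, 0.43 and 0.70, against -0.02 to 0.13, a difference of 0.42 ± 0.11. The transcript 4933438K21Rik had 2.28, 1.97 and 2.23, against 0.65 to 1.69, a difference of 1.06 ± 0.26. These 3 differences lay between 0.32 and 1.15 without any 1 treated array, and the adjusted p with all arrays was 0.229 to 0.245. Each of these genes had every treated array above every control (3.18% of all units), so leaving out replicate 2 could not change its sign. They were picked by small p on these same arrays, so their separation is no further result. With the liver and fat covariates each kept its sign.

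Of the 12 genes with the smallest p among those lower, all lay below every control on all 3 treated arrays (2.06% of all units). They were picked by small p on these same arrays, so this separation is no further result. Magohb, a core protein of the exon junction complex, had -1.18, -1.22 and -1.03 in the treated lungs, against -0.73, -0.88, -0.93, -0.80 and -0.68 in the control lungs, a log2 difference of -0.34 ± 0.08 (limma adjusted p = 0.229). Ctsf, a lysosomal cysteine protease, had 1.71, 1.73 and 1.53, against 2.11, 2.07, 2.16, 2.14 and 2.20, a difference of -0.48 ± 0.12. Both genes had narrow spreads in each group. Sertad1, a coregulator that binds cyclin-dependent kinase, had -0.24, -0.44 and -0.38, against 0.02 to 0.65, a difference of -0.66 ± 0.17. Adcy2, an adenylyl cyclase, had 0.96, 0.82 and 0.76, against 1.04 to 1.96, a difference of -0.62 ± 0.16. The zinc finger gene Zfp280b (-0.37 ± 0.09), the elongation factor subunit Supt4b (-0.31 ± 0.08), the scramblase Plscr2 (-0.54 ± 0.15), the kallikrein Klk8 (-0.63 ± 0.18), the golgin Gcc1 (-0.34 ± 0.09; -0.01 for another probe) and 2210016F16Rik (-0.76 ± 0.20) followed, and Acot2 is described with the fatty acid genes. Klk8 and 2210016F16Rik were uneven, with Klk8 at 2.63 on replicate 1 against 1.99 and 1.84 on the other two. Gab1, an adaptor of receptor tyrosine kinases, had 1.18, 0.92 and -0.27, against 1.25 to 1.43; its spot lies in the Cy3 patch of replicate 3, and its difference of -0.72 is -0.28 with patch spots left out.

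**Figure D4:**
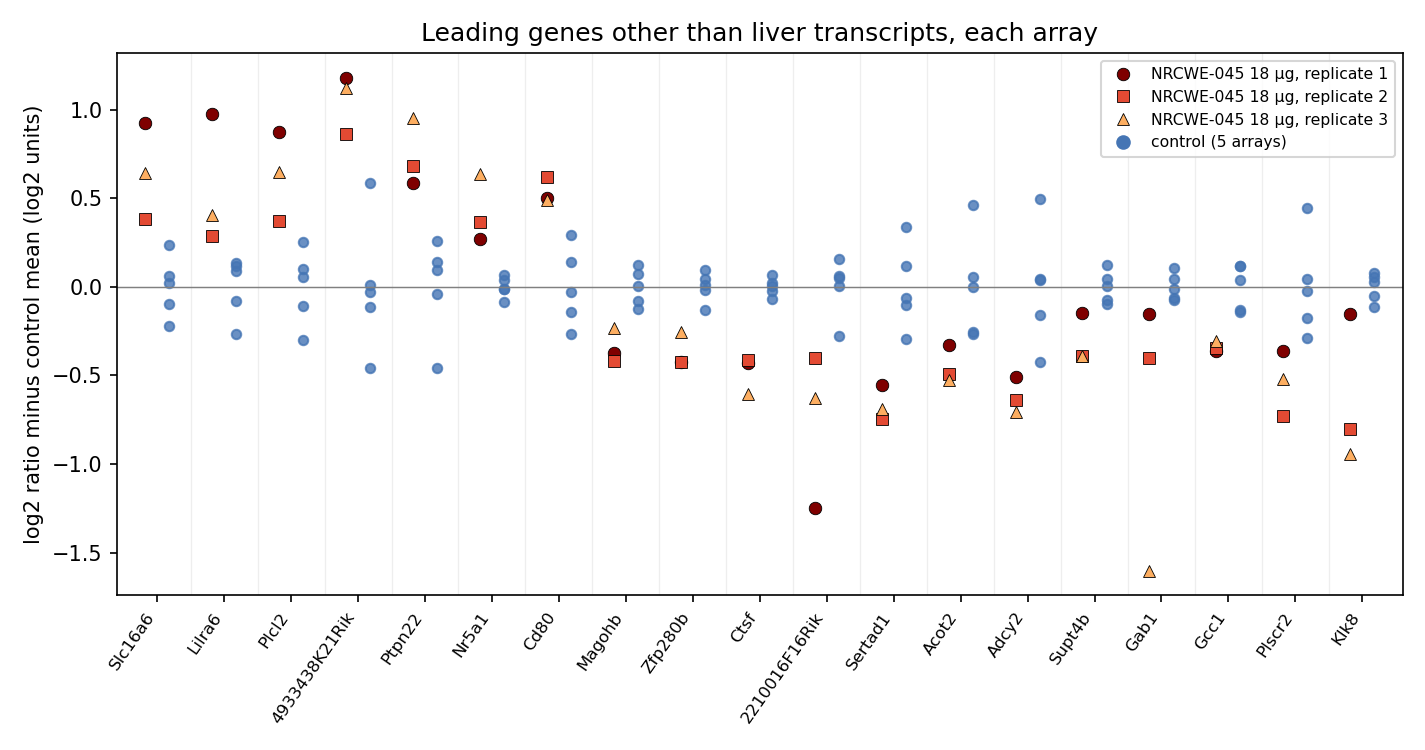
Log2 ratio minus control mean, in log2 units (y axis), of 7 genes with the smallest p among those higher, other than liver transcripts, and the 12 among those lower (x axis). Symbols at the left of each lane are the 3 NRCWE-045 18 µg arrays and blue points at the right the 5 control arrays. The genes were picked by small p on these arrays, and the groups do not overlap for any gene shown. Gab1 on replicate 3 lies in a bright Cy3 patch.

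B and T cell genes leaned upward, the B cell genes most of all on replicate 1. Of 20 tested B and plasma cell genes, 19 lay above the controls in mean (50.7% of all units), 5 at an unadjusted p under 0.05 (5.04% of all units) and 3 with groups apart (3.18%), with a median of 0.42. All 20 lay above every control on replicate 1, but 3 on replicate 2 and 5 on replicate 3, and the median was 0.06 without replicate 1. It was 1.46 within the first slide, beside controls 1 and 2, and 0.03 within the second; control 2 was the lowest control for this list. Ms4a1, the B cell surface protein CD20, had 1.28, 0.16 and 0.50, against -0.17, -1.62, -0.08, -0.57 and -0.06, a log2 difference of 1.15 ± 0.34. Cd22, an inhibitory B cell lectin, had 1.77, 1.20 and 1.57, against 0.95 to 1.19, and its difference was 0.41 ± 0.16. Both lay above every control on all 3 treated arrays and were highest on replicate 1. Fat transcripts were also highest on replicate 1, and their part in this result was not tested.

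Of 20 tested T cell genes, 18 lay above the controls (50.7% of all units), 4 were higher at an unadjusted p under 0.05 (5.04% of all units) and 3 had groups apart (3.18%), with a median of 0.14. Without replicate 1 the median was 0.037, with 11 of 20 above. Of 16 natural killer cell genes 8 lay above the controls, with a median of -0.011. The kinase Lck, which starts T cell receptor signalling, had 0.07, 0.03 and 0.12, against -0.09, -1.11, -0.17, -0.85 and -0.45. The kinase Zap70, next in that pathway, had -0.27, -0.02 and -0.27, against -0.62 to -0.45. The treated values of Lck were tight and its control values wide, with differences of 0.61 ± 0.25 for Lck and 0.34 ± 0.13 for Zap70. The surface receptor Cd6 (0.54 ± 0.23) overlapped the controls, and another probe of it gave -0.02. The T cell median was 0.38 within the first slide and -0.11 within the second.

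Some myeloid genes were high on all 3 treated arrays and others on replicate 1 only, while the alveolar macrophage list lay near the controls. Of its 17 tested genes 10 lay below the controls (49.3% of all units), with a median of -0.088 and none at an unadjusted p under 0.05. Of 18 tested monocyte and interstitial macrophage genes 13 lay above (50.7% of all units), with a median of 0.13 and none at that p. Among 13 tested dendritic cell genes 8 lay above (50.7% of all units), with a median of 0.061. At that p, 1 of them was higher (5.04% of all units) and 1 lower (2.87%). Itgam, the integrin chain CD11b of myeloid cells, had 2.92, 2.46 and 2.90, against 1.84, 2.08, 2.27, 2.07 and 1.74, a log2 difference of 0.76 ± 0.22 (0.38 and 0.03 for other probes). Csf3r, the receptor of granulocyte colony-stimulating factor, had 2.00, 2.35 and 2.39, against 1.46, 1.57, 1.97, 1.46 and 1.19, a difference of 0.72 ± 0.20. Siglech, a lectin of plasmacytoid dendritic cells, had 1.86, 2.01 and 2.14, against 1.103 to 1.75, a difference of 0.54 ± 0.18 (0.13 for another probe). These 3 genes were above every control on every treated array. The calprotectin subunit S100a8, by contrast, had 5.01, 2.14 and 1.03, against 1.57 to 2.28, and the lectin Clec4d had -0.98, -2.83 and -3.12, against -3.60 to -2.70. Over 19 tested neutrophil genes the median was 0.23 with all arrays and -0.08 without replicate 1, and 13, 3 and 2 of them lay above every control on replicates 1, 2 and 3, beside 18.5, 19.2 and 21.5% of all units, so the counts on replicates 2 and 3 were no higher than those shares.

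Cytokines, chemokines and complement showed the same division. Cxcl13, the chemokine that draws B cells into follicles, had 5.28, 0.58 and 1.07 in the treated lungs, against 0.87 to 1.88 in the controls, and the cytokine Il1b had 3.26, 1.35 and 1.23, against 1.09 to 1.53. Replicate 1 alone was high for both, and the differences of 0.87 ± 0.61 and 0.57 ± 0.36 turned to -0.61 and -0.09 without it. Casp4, the non-canonical inflammasome caspase, had -0.38, -0.48 and 0.16, against -0.87 to -0.52, and Tnfaip3, a brake on NF-kappaB, had -0.25, -0.09 and -0.00, against -0.75 to -0.26. Both were above every control (0.46 ± 0.19 and 0.35 ± 0.16). C3, the central complement protein, had 3.03, 2.64 and 3.03, against 2.01 to 2.53, a difference of 0.66 ± 0.26. Ccl24, a chemokine for eosinophils, had -2.01, -2.51 and -2.39, against -3.40 to -2.85, a difference of 0.84 ± 0.41. At an unadjusted p under 0.05, 2 of 17 cytokine and inflammasome genes, 2 of 21 complement genes, 0 of 18 CC and 0 of 19 CXC chemokine and receptor genes were higher, beside 5.04% of all units, and none was lower in these lists. The interferon list had a median of 0.10 over 25 genes and the MHC class II list 0.16 over 15.

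**Figure D5:**
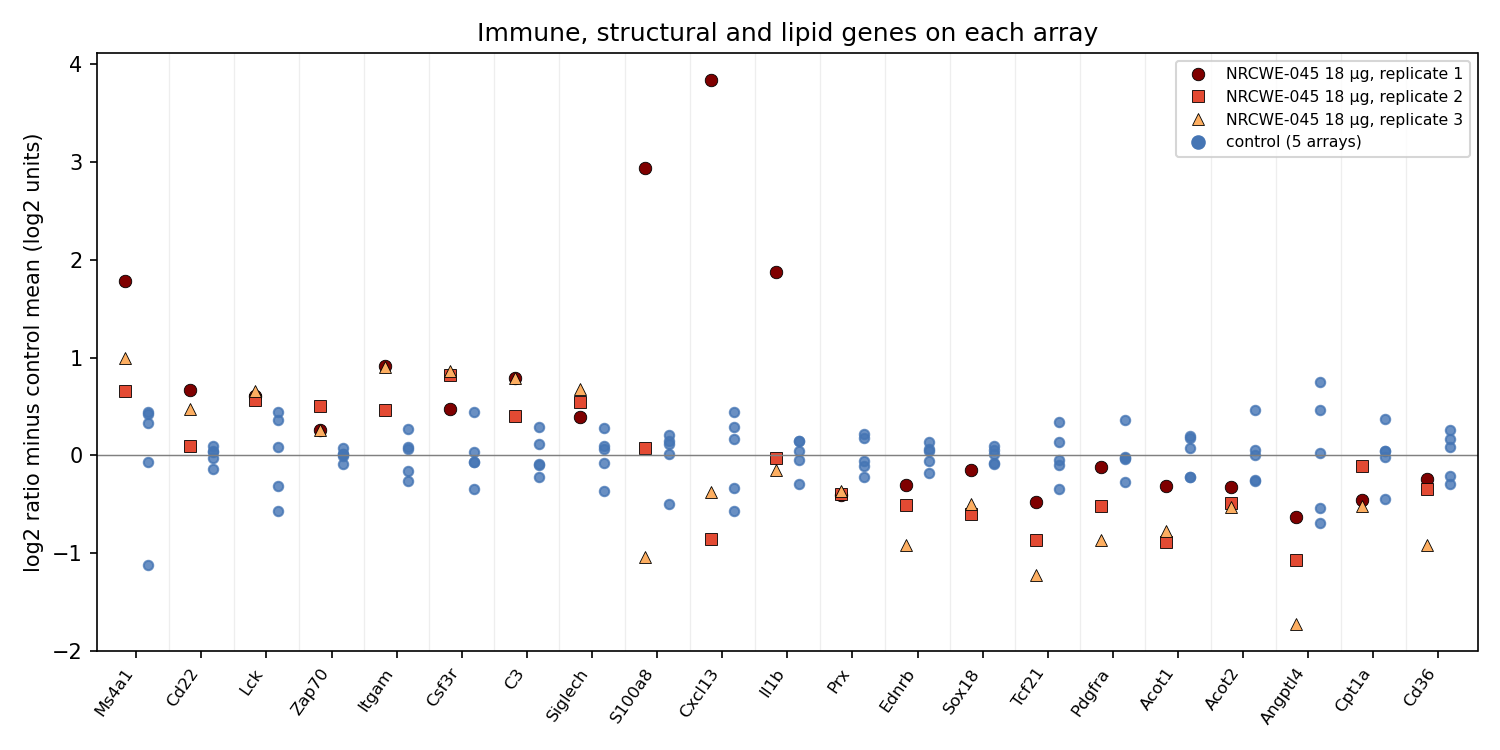
Log2 ratio minus control mean, in log2 units (y axis), of 21 immune, structural and lipid genes (x axis) on each array. Symbols at the left of each lane are the 3 NRCWE-045 18 µg arrays and blue points at the right the 5 control arrays. S100a8, Cxcl13 and Il1b are high on replicate 1 alone, whereas Itgam, Csf3r and Lck are above every control on all 3.

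Of the 18 genes preset for nanotube responses, 2 reached an unadjusted p under 0.05, both higher (5.04% of all units), and 1 had groups apart (3.18%). These counts are small, and no result about the list is drawn from them. Saa3, the serum amyloid made in lung, had -2.67, -3.68 and -2.68, against -3.14, -4.02, -4.43, -3.73 and -4.02, a log2 difference of 0.86 ± 0.59 with overlapping groups. Saa1, made largely in liver, had -0.76, 0.74 and -0.68, against -1.17 to -0.88; the groups were apart, and the difference of 0.80 ± 0.25 was 0.31 without replicate 2. Arg1, the urea cycle arginase, had 0.55, 3.68 and 0.64, against 0.38 to 1.00, high on replicate 2 alone. The acute phase glycoproteins Orm1 and Orm2, also liver products, had differences of 1.19 ± 0.40 and 1.45 ± 0.46 and were high on replicates 1 and 2. The iron-binding lipocalin Lcn2 (-0.06 ± 0.33), the haem oxygenase Hmox1 (-0.01 ± 0.22), osteopontin, Spp1 (-0.27 ± 0.25), the macrophage elastase Mmp12 (0.04 ± 0.15), the collagen chain Col1a1 (0.08 ± 0.24), the protease inhibitor Timp1 (0.13 ± 0.21), the chemokines Ccl2 (0.15 ± 0.35), Cxcl1 (0.42 ± 0.45) and Cxcl5 (0.17 ± 0.81) and the glycoprotein Gpnmb (0.18 ± 0.34) had overlapping groups, none at an unadjusted p under 0.05. Mmp12 was well above background on 1 treated and 1 control array. The chitinase-like protein Chil3 (-0.09 ± 0.69) and the anion exchanger Slc26a4 (0.32 ± 0.73) varied widely within both groups, with Slc26a4 at 3.11, 1.12 and 4.16, against 1.69 to 3.75. Trem2, a lipid receptor of macrophages, had -1.99, -2.13 and -0.51, against -2.63 to -1.41, and was high on replicate 3 alone.

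Endothelial and fibroblast markers leaned downward. Of 23 tested endothelial genes, 3 lay above the controls and 20 below (49.3% of all units below), 4 at an unadjusted p under 0.05 (2.87% of all units), and 3 with groups apart (2.06%), with a median of -0.28. Below every control were 5, 15 and 14 of them on replicates 1, 2 and 3, beside 15.6 to 21.1% of all units, and the median was -0.14 with slide as a block and -0.05 within the first slide. Prx, the cytoskeletal periaxin of lung capillaries, had 4.26, 4.26 and 4.30, against 4.56, 4.60, 4.84, 4.44 and 4.88. Ednrb, the endothelin receptor of alveolar capillary cells, had 2.83, 2.62 and 2.21, against 2.95 to 3.27, and Sox18, a transcription factor of vessels, had 4.62, 4.17 and 4.27, against 4.68 to 4.86. All 3 genes lay below every control, with log2 differences of -0.39 ± 0.15, -0.58 ± 0.22 and -0.41 ± 0.20. Eng, the endoglin coreceptor, overlapped (-0.50 ± 0.22). Heart transcripts were lowest on replicate 3, and their part in these values was not tested.

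Of 18 tested fibroblast genes, 5 lay above the controls (50.7% of all units), with a median of -0.21 that was -0.05 with slide as a block. At an unadjusted p under 0.05, 2 were lower (2.87% of all units) and 1 higher (5.04%). Tcf21, the transcription factor of lipofibroblasts, had 4.02, 3.63 and 3.28, against 4.45, 4.40, 4.16, 4.85 and 4.64, a log2 difference of -0.86 ± 0.27, with -0.60 under the slide block. Pdgfra, the platelet-derived growth factor receptor of alveolar fibroblasts, had 0.56, 0.17 and -0.18, against 0.42 to 1.04 (-0.50 ± 0.21). Dcn, the matrix proteoglycan decorin, went the other way, with 2.10, 0.92 and 0.99, against 0.15 to 1.02. The alveolar type 1 list had a median of -0.15 and the type 2 list -0.09, with no member at an unadjusted p under 0.05 in either. The matrix and fibrosis list had a median of 0.01 over 29 genes, with periostin, Postn, the only member at an unadjusted p under 0.05 (3.00, 2.28 and 2.77, against 2.88 to 3.41).

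Fatty acid genes governed by PPARA divided by direction. Of 21 tested, 4 were lower (2.87% of all units) and 2 higher (5.04%) at an unadjusted p under 0.05, with 2 of the lower ones apart (2.06%) and a median of -0.05. Acot2, the mitochondrial acyl-CoA thioesterase, had -0.76, -0.92 and -0.96, against -0.43, -0.69, -0.70, -0.38 and 0.03, and its cytosolic relative Acot1 had 1.27, 0.70 and 0.81, against 1.35 to 1.77. Both lay below every control (-0.45 ± 0.12 and -0.65 ± 0.23). Angptl4, the lipoprotein lipase inhibitor, had -0.10, -0.53 and -1.18, against -0.15, -0.00, 0.56, 1.00 and 1.29, a difference of -1.14 ± 0.50 that was -0.02 within the first slide and -1.09 within the second. Cpt1a, which admits fatty acids to mitochondria, had 0.52, 0.88 and 0.46, against 0.54 to 1.36 (-0.36 ± 0.17). The higher ones were the fatty acid hydroxylases Cyp4a14 and Cyp4a10 of liver and kidney; Cyp4a14 had 0.35, 3.44 and 0.19, against -0.03 to 0.25, so it was high on replicate 2, and Cyp4a10 had a difference of 0.58 ± 0.27. Outside this list, Cd36, the fatty acid transporter of capillaries and macrophages, had 3.71, 3.60 and 3.03, against 3.66 to 4.21 (-0.50 ± 0.18).

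Other stress and growth lists had small median differences, and some leaned in 1 direction. Of 25 cholesterol synthesis genes, 21 lay above the controls (50.7% of all units), with a median of 0.11. Sc5d, a late sterol desaturase (0.39 ± 0.18), was 1 of 3 with groups apart (3.18% of all units). Of 26 cell cycle genes, 23 lay above (50.7% of all units), none at an unadjusted p under 0.05, with a median of 0.13. Control 1 lay highest for this list. Of 17 p53 targets, 4 lay above (50.7% of all units), with a median of -0.04. The 1 gene apart, and lower (2.06% of all units), was Pmaip1, a mitochondrial death protein. Its spot lies in the patch of replicate 3, and its difference of -0.46 was -0.17 with patch spots left out. Among 23 oxidative stress genes the median was 0.03. Catalase, Cat, had 2.93, 2.43 and 2.74, against 2.03 to 2.42 (0.50 ± 0.16; -0.07 for another probe), and glutathione reductase, Gsr, had 0.22, 0.08 and 0.09, against -0.21 to -0.04 (0.27 ± 0.12; 0.10 for another probe). Ldha, the glycolytic lactate dehydrogenase chain, had -1.39, -1.48 and -1.19, against -1.80 to -1.55 (0.32 ± 0.11; 0.08 and 0.14 for other probes). Among 15 tested heat shock genes, 13 had means below the controls' (49.3% of all units), with a median of -0.13 and none at an unadjusted p under 0.05.

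The lowest differences of the whole comparison, Myh6 and Sln among them, were set by replicate 3 alone. The calcium channel subunit Cacna2d4 and the membrane protein Tmem132c had -1.73 and -0.996 on replicate 3, where their Cy3 intensities were 774.5 and 733, both in the bright patch, against 50 to 78 and 48 to 62 on the other 7 arrays. On replicates 1 and 2 Cacna2d4 had 1.99 and 1.57, against 1.76 to 2.03 in the controls. With patch spots left out its difference was -0.15, in place of -1.32.

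The same lungs were next set against lungs given 54 µg of the same material. No unit passed (0 of 29316, 0%; smallest adjusted p 1.00 in limma), and 699 (2.38%) reached an unadjusted p under 0.05, 463 higher (1.58%) and 236 lower (0.805%). Where no unit differed, 1465.8 would be expected under that unadjusted threshold. Without replicate 3, 25 units passed, all higher. M1ap, a meiotic protein, had -0.34, 0.03 and 0.70 at 18 µg, against -1.48 to -0.45 at 54 µg, and the growth factor Nrg1 had -1.34, -1.43 and -1.36, against -2.005 to -1.63. The groups were apart for both genes (0.98 ± 0.24 and 0.50 ± 0.14). Both were picked by their small p in this comparison, so their separation is no further result. The share of all units apart was not counted for this comparison. Agt, the liver precursor of angiotensin, and Etnppl, a phospholyase, were highest on replicate 2, at 0.83 and 1.96. The B and plasma cell list averaged 1.22, 0.06 and 0.17 at 18 µg, against 0.14 to 0.50 at 54 µg. The liver list averaged 0.71, 3.77 and 0.17 at 18 µg, against -0.15 to 1.13 at 54 µg. Its highest value at 54 µg, on replicate 1 of that group, lay above 18 µg replicates 1 and 3.

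Set against the lungs given 18 µg of NRCWE-043 or NRCWE-044, 77 units passed (0.263% of 29316), 76 of them higher and 1 lower in the NRCWE-045 lungs. At an unadjusted p under 0.05 there were 2662 (9.08%), 1817 higher (6.2%) and 845 lower (2.88%). Of the 40 that have a name, most of the largest were liver transcripts. Serpina1a had 2.84, 5.67 and 2.22, against -0.11 to 0.78 over the 11 other arrays (log2 difference 3.31 ± 0.60, limma adjusted p = 0.0248), and Alb had 2.21, 5.32 and 1.48, against 0.10 to 1.20 (2.67 ± 0.52, adjusted p = 0.0326). The liver list lay at 0.17 to 3.77 in the NRCWE-045 18 µg lungs and at -0.19 to 0.03 in these 11. Without replicate 2, Serpina1a and Alb lost the call, at limma adjusted p = 0.153 and 0.254. With the liver and fat covariates their limma adjusted p was 0.639 and 0.779. Both genes belong to the liver list, whose mean is a covariate. The covariate fit thus removes part of their difference by construction and cannot test it.

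Named genes outside the liver group were also called. Tdh, a threonine dehydrogenase, had 0.86, 0.55 and 0.70, against 0.08 to 0.41, a log2 difference of 0.46 ± 0.08 (limma adjusted p = 0.0248), and of the named calls it alone held without replicate 2 (adjusted p = 0.0340). With the covariates its adjusted p was 0.061, and against the controls another probe of it gave 0.01. 4933438K21Rik was 1.19 ± 0.23 higher, Csf3r 0.84 ± 0.18, Cd80 0.55 ± 0.12 and Nr5a1 0.43 ± 0.09, at adjusted p = 0.0364 to 0.0469. Csf3r had 2.00, 2.35 and 2.39, against 0.71 to 2.14, and Cd80 had 1.40, 1.52 and 1.38, against 0.55 to 1.44, so both overlapped, while the groups were apart for Tdh, 4933438K21Rik and Nr5a1. Acot2 was the 1 gene lower, at -0.76, -0.92 and -0.96, against -0.67 to -0.16 (-0.48 ± 0.11, adjusted p = 0.0469). With slide as a block 12 units passed, of which 11 are among the 77. The named ones among these 11 were Serpina1a, Serpina1c, Serpina1e and Alb, so Tdh, 4933438K21Rik, Csf3r, Cd80, Nr5a1 and Acot2 all lost the call, at adjusted p = 0.056 to 0.083. With the liver and fat covariates 12 passed, of which 0 are. Without replicate 2, 20 passed, of which 6 are.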

How the data were processed

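Lung RNA (Cy5) and universal reference RNA (Cy3) were hybridised to 34 arrays, of which 3 NRCWE-045 18 µg and 5 control arrays are the members. Spot and background intensity values were extracted by the authors with Agilent Feature Extraction 11.0.1.1, per the file headers, which also hold deposited 0 or 1 flags. The authors' deposited table of log2 ratios was used only as an alternative, and how it was made is not given in the sources used here; its column medians lie between -0.041 and -0.0041, and each column correlates with the values computed here by at least 0.994, so its scale and direction are known and its centring is not. Median intensities were corrected with normexp (offset 50) and normalized by loess within each array in limma 3.58.1 (R 4.3.3, statmod 1.5.0). Control spots were left out. A unit was kept where Cy5 was well above background on 3 or more arrays, and was tested by lmFit and eBayes over all 7 groups, with Benjamini-Hochberg adjustment over 29316 units. Probes were named by matching their accessions to RefSeq, which named 27235 of 55681, and where a gene has several probes the one with the highest mean Cy5 was used. Slide was tried as a block and within slides. Alternatives are given in the closing section. Scripts were tested on simulated data.

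Named genes are the 12 with the smallest p in each direction among those well above background on all 8 arrays, up to 3 per list and direction, the 18 preset genes, members of the liver, fat, muscle and thymus lists, 5 per direction of the other comparisons, and the 5 highest and 5 lowest differences. Some genes that this rule names are not reported here. The members and the 47 lists were chosen with earlier results of these data known. Promoter sequence came from RefSeq (GRCm38.p6). Replicates were numbered in deposit order.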

Additional observations from a re-analysis of the deposited data

Results flagged for a closer look

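Among the 5 control lungs, the highest or lowest array was examined for its distance from the others in 164 sets of values, and 7 (4.27%) stood apart, where chance gives about 1 in 20. Control 2 was low for S100a8, at 1.574, and for the fatty acid hydroxylase Cyp4a14, at -0.03499. Control 1 was low for the extracellular superoxide dismutase Sod3, at 3.96. Control 5 was high for Ager, at 6.588. For lists, control 3 was low for extracellular matrix, at -0.1876, control 1 was high for cell cycle, at 0.5069, and control 2 was low for B and plasma cells, at -0.4387, each as mean log2 ratio minus control mean.

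Other values were singled out because limma's test of the difference between materials at the same dose passed the threshold, with NRCWE-045 18 µg over NRCWE-043 and NRCWE-044 18 µg. Among immune and lipid genes the log2 differences were 0.5471 for Cd80, 0.8404 for Csf3r and -0.479 for Acot2. Among liver transcripts they were 3.309 for Serpina1a, 2.814 for Serpina1c, 2.527 for Serpina1e, 2.672 for Alb, 3.244 for Ambp, 2.371 for Apoc3 and 2.378 for Ahsg. The major urinary proteins had 2.52 for Mup20, 3.78 for Mup17, 4.131 for Mup18, 3.952 for Mup19 and 1.299 for Mup3. Apoc3, Mup20 and Mup3 were well above background on 0 of the 11 comparison arrays and Mup17 on 1, so these fitted differences are not measured folds. The remaining genes had 1.188 for 4933438K21Rik, 0.4293 for Nr5a1 and 0.4561 for Tdh.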

How the results depend on the processing

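Against the controls, 0 units passed in limma under each of the 11 settings that kept all arrays. At an unadjusted p under 0.05 there were 1715 (of 21089 tested) to 3006 (of 29316), beside 2319 of 29316 as reported. The number of units tested differs between settings, so these counts are not shares. Leaving out 1 array gave 0 to 111 units against the controls, 0 to 25 against NRCWE-045 54 µg, and 20 to 220 against NRCWE-043 and NRCWE-044 18 µg. In that last comparison the 77 units became 44 in the authors' deposited table, 4 with processed signals, 13 with no filter, 0 with only units well above background on all arrays compared, 12 with slide as a block, 8 with only the groups compared, 12 with the liver and fat covariates, 11 with scaling between arrays and 0 with array weights. Scaling, array weights and leaving out bright Cy3 patches were chosen after seeing the data. Quantile normalization of average intensity left the log ratios as they were.

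Of 1265 gene values against the controls under those settings, 22 changed sign. With the liver and fat covariates these were Lcn2 at 0.12, Arg1 at -0.18, Chil3 at 0.51, Scgb1a1 at -0.0060, Cyp4a14 at -0.23, Cyp4a10 at -0.11, Fgb at -0.066, Apoa1 at -0.19, the fatty acid-binding protein Fabp1 at -0.72, Etnppl at -0.026, the adipocyte protease Cfd at -0.18 and the atrial peptide Nppa at -1.61. With slide as a block they were Cxcl5 at -0.12, Mmp12 at -0.047 and Nppa at -0.16. With processed signals they were Cxcl5 at -0.12 and Chil3 at 0.064, with array weights Chil3 at 0.033 and Hmox1 at 0.030, with scaling Hmox1 at 0.058 and Scgb1a1 at -0.025, and with bright Cy3 patches left out Tmem132c at 0.091. Fgb, Apoa1, Fabp1 and Cfd belong to the liver or fat list, whose means are the covariates, so the covariate fit removes part of their difference by construction. The spot of Tmem132c on replicate 3 is 1 of the patch spots left out. For the other changes the cause was not tested.

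Leaving out 1 array moved gene values across 0, with ranges of -0.062 to 1.504 for Arg1, -0.028 to 0.42 for Ccl2, -0.76 to 0.41 for Chil3, -0.075 to 0.25 for Col1a1, -0.61 to 1.73 for Cxcl13, -0.10 to 0.37 for Cxcl5, -0.28 to 0.81 for Fabp1, -0.20 to 0.12 for Hmox1, -0.091 to 0.92 for Il1b, -0.14 to 0.042 for Lcn2, -0.074 to 0.16 for Mmp12, -2.66 to 0.43 for Myh6, -0.999 to 0.95 for Nppa, -0.49 to 1.504 for S100a8, -0.17 to 0.28 for Scgb1a1, -0.36 to 1.16 for Slc26a4, -2.44 to 0.27 for Sln, -2.08 to 0.091 for Tmem132c and -0.013 to 0.80 for Trem2. List medians ranged from 0.27 to 2.45 for liver, 0.014 to 0.14 for macrophage lysosome and -0.078 to 0.037 for p53 targets.

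With the covariates, list medians were -0.088 for oxidative stress, -0.080 for liver, -1.27 for cardiac muscle and -0.30 for glucocorticoid response, and with slide as a block -0.029 for alveolar type 1 cells. Within the first slide (1 treated array and 2 controls) they were 0.27 for cholesterol synthesis, 0.67 for fatty acid synthesis, 0.024 for p53 targets, 0.17 for unfolded protein response, 0.98 for neutrophils, 1.46 for B and plasma cells, 0.38 for T cells, -0.054 for endothelium, 0.021 for fibroblasts, 0.048 for alveolar type 2 cells, 0.32 for mesothelium, 0.50 for liver, 1.33 for fat, 0.13 for blood, -0.22 for circadian clock and 0.15 for immediate early genes. Within the second slide (1 treated array and 1 control) they were 0.23 for cholesterol synthesis, 0.18 for fatty acid oxidation, -0.24 for unfolded protein response, -0.11 for T cells, 0.32 for natural killer cells, 0.019 for alveolar type 1 cells, 3.89 for liver and -0.54 for heat shock.

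No paired analysis was possible because the labels give each sample its own number, shared by no sample of another group. The precision is limited by 3 treated and 5 control arrays, and the third treated array shared a slide with no control. Apoc3, Fgb and Apoa1 were well above background on no control, so their fitted differences are neither measured folds nor bounds.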
